A study of Mus musculus with 27 samples.

Results

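Slow-fibre thin filament and myosin light chain genes were followed in mouse tibialis anterior muscle after volumetric muscle loss (VML), an injury in which a block of muscle too large to regrow is cut away. The 7 genes, of 54532 in the deposited table, were taken by name, and the choice was made with earlier results of these data known. They were the light chains Myl2, Myl3 and Myl6b, the slow troponins Tnnt1, Tnni1 and Tnnc1, and the tropomyosin Tpm3. All 7 passed the filter on low values that left 14630 genes for testing. The muscles came from male C57BL/6 mice aged 8 weeks at surgery, with no transgene. In the VML groups 40% of the muscle had been excised, and muscles were taken at day 3 (n = 5), day 7 (n = 6), day 14 (n = 6) and day 21 (n = 5). The control group was uninjured muscle (n = 5). The public description calls the excision unilateral and the methods call it bilateral, and the sample labels do not say which. Nothing says whether the samples of a group came from separate mice, so p-values measure the spread between these samples.

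In the sarcomere, myosin heads carry an essential and a regulatory light chain, while the actin filament is covered by tropomyosin and by the troponin complex of a tropomyosin-binding subunit (T), an inhibitory subunit (I) and a calcium-binding subunit (C). Most of these proteins exist in a slow version, made in oxidative slow-twitch fibres and, for several of them, in the heart, and in a fast version from another gene. The mouse tibialis anterior is a fast muscle with few slow fibres. Several slow versions, troponin I among them, are also made by immature fibres of developing and regenerating muscle, whatever type those fibres become.

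At day 3, Tnni1, Tnnc1, Tnnt1, Myl6b and Tpm3 were higher than in control muscle by 2.89-fold to 16.1-fold, and the remaining pair, the light chains Myl2 and Myl3, were not called. Of all tested genes, 23.4% were called higher at that time. Tnnt1 and Tnni1 were still higher at day 7 and day 14, as were 15% and 9.02% of all tested genes. Myl3 was lower at day 7, as were 14.4%. At day 21 none of the 7 passed the test, although every day 21 sample of Tnnt1 and Tnni1 lay above every control sample. That held for 5.26% of all tested genes. Tnnt1, Tnni1 and Tpm3 stood far below their fast partners throughout, and their mean log2 ratio to the partner was higher at each time point. Tpm3 itself was called higher only at day 3, and its ratio to a second partner, Tpm2, did not pass at day 14 or day 21.

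Values are FPKM (fragments divided by the length of the gene and by a total of fragments for the sample, as scaled by the authors), so levels of different genes can be compared per length. Reads recovered from the FPKM totalled 14376395 to 24436763 per sample (median 17398586). That total, relative to the reads recovered, lay between 0.747 and 1.48, with group means of 0.782 in control, 1.25, 1.18 and 1.045 for the first 3 time points after injury and 0.897 for the last. Differences and their standard errors (SE) are on the log2(FPKM + 1) scale, which understates changes of low genes, and folds are 2 to the power of that difference. They come from limma in 1 fit of all 27 samples, and a gene was called at a Benjamini-Hochberg adjusted p under 0.05 over the 14630 genes. Heart markers were near 0: Myl7 was listed at 0 in every sample, and the summed FPKM of 6 heart-only genes was at most 2.48. Of the 2 that passed the filter, 1 was called higher than control at day 3, day 7 and day 14, and 0 at day 21. The day 14 call was lost under each other scaling between samples that was tried. In bulk tissue, fewer cells of a type and less RNA per cell cannot be told apart.

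The promoters of the 3 slow troponins, which rose together at day 3, are shown beside that of Myl3, which did not. Each is the 250 bases before a RefSeq start on GRCm38.p6, printed 5′ to 3′ on the gene's strand. Tnnt1 lies at chr7:4515976-4516225 (minus strand), Tnni1 at chr1:135799171-135799420 (plus strand, the first of its 2 entries), Tnnc1 at chr14:31208062-31208311 (plus strand) and Myl3 at chr9:110763428-110763677 (plus strand). Capitals mark TATAAA, the E-box CAGCTG bound by myogenic factors of the MyoD family, and the MCAT element CATTCC bound by TEAD factors. CATTCC was searched on both strands and TATAAA on the printed strand only, while CAGCTG reads the same on both.
Tnnt1: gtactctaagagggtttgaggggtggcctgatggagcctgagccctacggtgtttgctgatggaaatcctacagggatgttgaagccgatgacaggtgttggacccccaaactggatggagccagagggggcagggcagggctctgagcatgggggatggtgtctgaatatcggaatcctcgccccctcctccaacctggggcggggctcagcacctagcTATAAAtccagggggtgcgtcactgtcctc
Tnni1: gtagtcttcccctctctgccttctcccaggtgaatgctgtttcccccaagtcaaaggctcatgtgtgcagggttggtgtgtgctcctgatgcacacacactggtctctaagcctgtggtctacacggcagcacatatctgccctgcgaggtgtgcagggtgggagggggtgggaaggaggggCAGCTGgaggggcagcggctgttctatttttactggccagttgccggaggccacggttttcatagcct
Tnnc1: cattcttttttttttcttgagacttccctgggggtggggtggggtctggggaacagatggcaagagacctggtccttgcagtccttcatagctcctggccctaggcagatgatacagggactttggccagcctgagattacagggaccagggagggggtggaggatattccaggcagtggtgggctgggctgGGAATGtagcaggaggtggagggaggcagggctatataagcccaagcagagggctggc
Myl3: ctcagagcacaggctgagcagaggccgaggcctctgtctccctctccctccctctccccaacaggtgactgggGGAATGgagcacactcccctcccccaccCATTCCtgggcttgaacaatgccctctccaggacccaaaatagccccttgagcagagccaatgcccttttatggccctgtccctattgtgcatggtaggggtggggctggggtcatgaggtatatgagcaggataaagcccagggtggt

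The Tnnt1 window held TATAAA, its first base 30 bases before the start, and TATAAA was found on the printed strand in 7.60% of 32817 promoter windows of this length. The Tnni1 window held CAGCTG 68 bases before the start, a motif present in 13% of windows. The Tnnc1 window held the MCAT element 58 bases before the start, and that of Myl3 held it at 177 and 149 bases, against 12.6% of all windows. The general E-box CANNTG, which includes CAGCTG, occurred in all 4 windows, but also in 66.2% of windows overall. The MEF2 motif was found in none of the 4 and in 0.509% of windows overall. No capital motif was common to the 3 troponin genes. These are matches of letters, and no binding was measured.

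Myl2 (ENSMUSG00000013936, chromosome 5, 122100951 to 122113472) encodes the regulatory light chain of slow fibres and the ventricle. Its FPKM in the 5 control samples was 17.02, 9.12, 3.63, 2.79 and 2.80. The day 3 samples read 1.43, 6.83, 0.525, 3.65 and 4.48. At day 7 the lowest was 0.397, the median 6.30 and the highest 177. The ranges of all 5 groups overlapped, and 1 day 7 sample, replicate 6, stood far above the next highest of its group (17.4). At day 14 the 6 samples ran from 0.369 through a median of 9.28 to 11.7, and at day 21 they read 0.973, 1.73, 1.53, 23.6 and 1.29. No time point differed from control in the limma test, with differences of -0.81 (SE 0.97, adjusted p = 0.534) at day 3, 0.36 (SE 0.93, adjusted p = 0.8002) at day 7, -0.15 (SE 0.93, adjusted p = 0.927) at day 14 and -0.80 (SE 0.97, adjusted p = 0.690) at day 21. These SEs are the largest of the 7 genes, and the lowest value rests on 16 reads.

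Myl3 (ENSMUSG00000059741, chromosome 9, 110741861 to 110769798) encodes the essential light chain of the same slow and ventricular myosin. It was the most abundant of the 7 per length in control muscle, with FPKM of 199, 12.3, 109.6, 85.6 and 94.1. At day 3 it read 22.7, 75.3, 8.55, 19.2 and 32.1. At day 7 it ran from 2.58 through a median of 11.3 to 78.7. In both groups all samples lay below 4 of the 5 control samples, and overlap came only from control replicate 2. At day 14 the range was 16.2 to 80.5 (median 44.2), and the day 21 samples read 34.2, 16.02, 95.7, 40.1 and 53.9. The difference from control was -1.54 (SE 0.74, adjusted p = 0.0941) at day 3 and -2.14 (SE 0.70, adjusted p = 0.0239, limma) at day 7, where Myl3 was 4.42-fold lower. It was -0.87 (SE 0.70, adjusted p = 0.392) at day 14 and -0.84 (SE 0.74, adjusted p = 0.562) at day 21. The day 7 call was lost without control replicates 1, 3 or 5 or day 7 replicates 3 or 4 (adjusted p up to 0.0771 for these), and the day 3 difference was called without control replicate 2 (-2.17, adjusted p = 0.0161) or day 3 replicate 2 (-1.93, adjusted p = 0.0437).

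Myl6b (ENSMUSG00000039824, chromosome 10, 128494157 to 128498685, minus strand) encodes an essential light chain found in slow and immature fibres. In control muscle its FPKM was 8.01, 5.57, 7.24, 3.08 and 7.77. At day 3 it was 24.9, 33.8, 19.3, 27.5 and 20.8. All day 3 samples were above all control samples, and the difference of 1.87 (SE 0.34, adjusted p = 1.09e-04, limma) made it 3.65-fold higher. Day 7 samples ran from 4.16 through a median of 11.7 to 36.4, and their difference of 0.83 (SE 0.32) had an adjusted p of 0.0547. At day 14 the samples lay between 5.10 and 12.8 (median 8.71), and at day 21 they read 8.63, 7.12, 7.17, 8.65 and 6.89. Those 2 groups overlapped the control samples, with differences of 0.46 (SE 0.32, adjusted p = 0.326) and 0.30 (SE 0.34, adjusted p = 0.667).

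**Figure D1:**
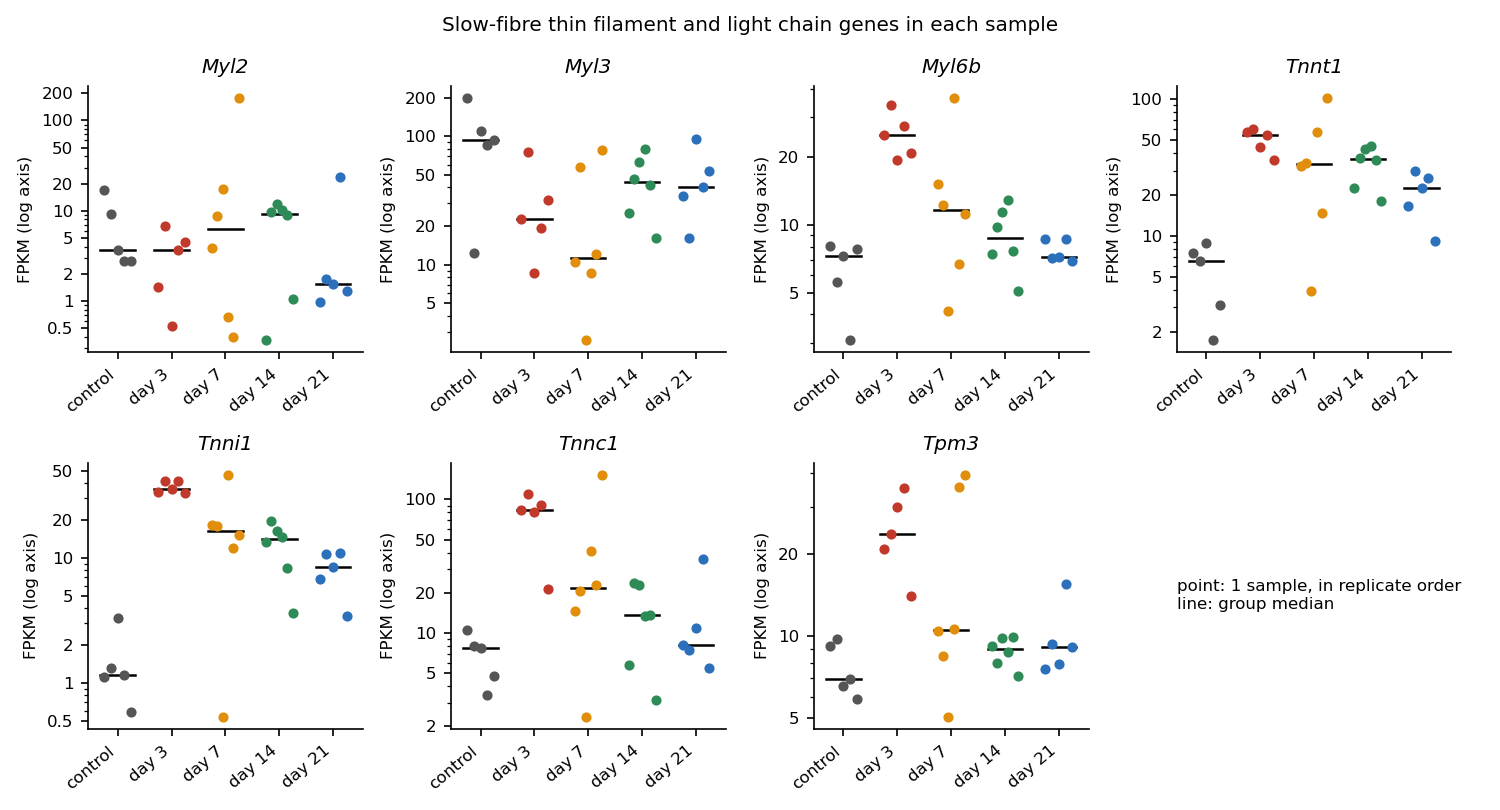
FPKM of the 7 slow-fibre genes (log axis) in each of the 27 samples by group, 1 point a sample in replicate order and a line at the group median. The day 3 points of Myl6b, Tnnt1, Tnni1, Tnnc1 and Tpm3 lie above all 5 control points, whereas the groups of Myl2 overlap, with day 7 replicate 6 highest at 177.

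Tnnt1 (ENSMUSG00000064179, chromosome 7, 4504570 to 4516382, minus strand) encodes slow troponin T, the subunit that ties the complex to tropomyosin. The control samples had FPKM of 7.49, 6.54, 8.82, 1.73 and 3.13. At day 3 they were 57.6, 60.0, 44.95, 54.7 and 36.1. The lowest day 3 sample was thus well above the highest control sample. At day 7 the range was 3.97 to 102 with a median of 33.3. At day 14 it was 18.01 to 45.7 with a median of 36.2. At day 21 the values were 16.4, 29.96, 22.3, 26.6 and 9.10. Day 7 replicate 3 (3.97) alone among the injured samples fell within the control range. The differences from control were 3.11 (SE 0.53, adjusted p = 5.47e-05, limma) at day 3, 2.28 (SE 0.50, adjusted p = 0.00198) at day 7 and 2.48 (SE 0.50, adjusted p = 0.00197) at day 14. At day 21 the difference of 1.79 (SE 0.53) had an adjusted p of 0.0550 and missed the threshold.

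Tnni1 (ENSMUSG00000026418, chromosome 1, 135779434 to 135810989) encodes slow troponin I, the inhibitory subunit and the form found in immature muscle. It was the least abundant of the 7 in control muscle, at 1.13, 1.32, 3.29, 1.15 and 0.588. At day 3 the FPKM was 33.6, 41.7, 36.0, 41.6 and 33.2. The control samples rest on 31 to 139 reads and the day 3 samples on 2454 to 3421. At day 7 the samples ran from 0.538 through a median of 16.6 to 46.6. At day 14 they ran from 3.63 through 14.1 to 19.7. At day 21 they read 6.78, 10.8, 8.53, 11.1 and 3.41. Day 7 replicate 3 (0.538) was below all control samples, and all other injured samples were above them. Tnni1 was 16.1-fold higher at day 3, a difference of 4.01 (SE 0.55, adjusted p = 5.53e-06, limma). The difference was 2.51 (SE 0.53, adjusted p = 0.00143) at day 7, 2.39 (SE 0.53, adjusted p = 0.00317) at day 14 and 1.87 (SE 0.55, adjusted p = 0.0567) at day 21.

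Tnnc1 (ENSMUSG00000091898, chromosome 14, 31208312 to 31211729) encodes the calcium-binding troponin C of slow and cardiac muscle. In control muscle it stood at 10.5, 8.04, 7.70, 3.43 and 4.79 FPKM. At day 3 it stood at 83.6, 110.2, 81.0, 90.2 and 21.2. All day 3 samples were above control, with replicate 5 well under the other 4. The difference was 3.21 (SE 0.68, adjusted p = 5.43e-04, limma), a 9.24-fold rise. Day 7 spanned 2.37 to 153 with a median of 21.7, day 14 spanned 3.18 to 23.5 with a median of 13.6, and day 21 read 8.20, 7.50, 10.8, 35.9 and 5.51. All 3 later groups overlapped control, with differences of 1.67 (SE 0.66, adjusted p = 0.0562), 0.73 (SE 0.66, adjusted p = 0.449) and 0.65 (SE 0.68, adjusted p = 0.636).

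Tpm3 (ENSMUSG00000027940, chromosome 3, 90072649 to 90100902) encodes slow tropomyosin and, from an internal start, tropomyosins of non-muscle cells. FPKM is given per gene and sums all 16 annotated transcripts, so slow-fibre and non-muscle forms cannot be told apart. Control samples read 9.20, 9.77, 6.54, 6.95 and 5.89. Day 3 samples read 20.9, 23.8, 29.9, 35.0 and 14.1. The groups did not overlap, and Tpm3 was 2.89-fold higher at day 3 (difference 1.53, SE 0.36, adjusted p = 0.00129, limma). At day 7 it ran from 5.06 through a median of 10.5 to 39.3, and at day 14 from 7.17 through 8.97 to 9.95. At day 21 it read 7.56, 9.37, 7.90, 15.6 and 9.16. None of these was called, with differences of 0.81 (SE 0.34, adjusted p = 0.0769), 0.19 (SE 0.34, adjusted p = 0.726) and 0.31 (SE 0.36, adjusted p = 0.672). Of its annotated copies, Tpm3-rs7 reached at most 4.19 FPKM and Tpm3-rs2 was listed at 0. At day 3 all 7 listed genes of the non-muscle cytoskeleton were called higher too, Tpm4 by 1.78 (SE 0.25, adjusted p = 6.18e-06) and Actb by 1.74 (SE 0.28, adjusted p = 3.21e-05), and their part in the Tpm3 value was not tested.

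Against control, the 7 genes thus held 5 called higher and 0 lower at day 3, where 23.4% of all tested genes were called higher and 19.8% lower. At day 7 the counts were 2 higher and 1 lower (background 15% and 14.4%). At day 14 they were 2 and 0 (9.02% and 11.3%), and at day 21 they were 0 and 0 (1.74% and 1.69%). At an unadjusted p under 0.05, limma gave 2 of the 7 as higher at day 21, Tnnt1 and Tnni1, against 9.23% of all tested genes. All samples lay above all control samples for 5 of the 7 genes at day 3, for 2 at day 14 and for the same 2, Tnnt1 and Tnni1, at day 21, which held for 19.8%, 7.67% and 5.26% of all tested genes. The median difference of the 7 genes was 1.87, 0.83, 0.46 and 0.31 at the 4 time points, against 0.012, 0.028, 0.020 and 0.014 over all tested genes. The day 7 count depended on replicate 3: without it 5 of the 7 were higher, as Myl6b (1.08, adjusted p = 0.00624), Tnnc1 (2.23, adjusted p = 0.00443) and Tpm3 (1.07, adjusted p = 0.0116) passed too. At day 21, Tnnt1 (adjusted p = 0.0119) and Tnni1 (adjusted p = 0.0041) were called without day 7 replicate 3, which changes only the shared estimate of the spread. Such omissions also moved the counts over all tested genes. With single samples left out, genes called higher ran from 1707 to 2701 at day 7 (2189 with all samples) and from 105 to 344 at day 21 (255 with all samples).

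**Figure D2:**
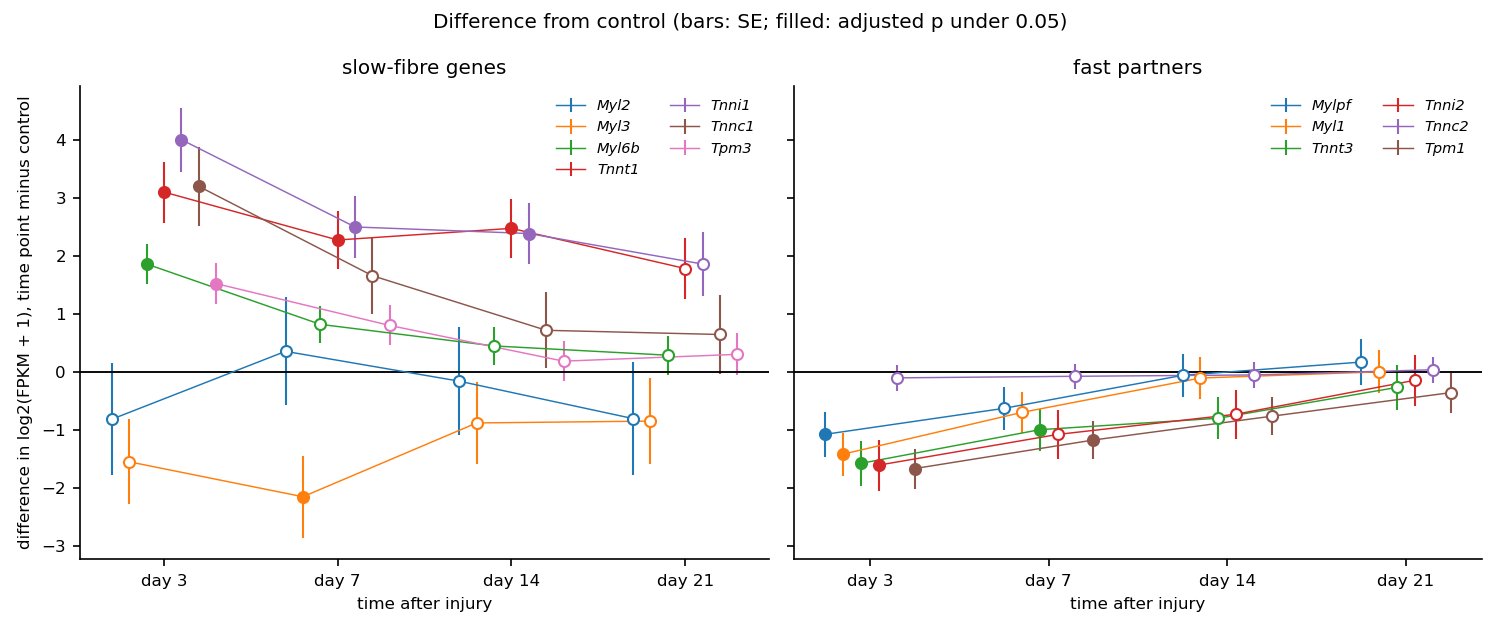
Difference from control in log2(FPKM + 1) at day 3, 7, 14 and 21 for the 7 slow-fibre genes and their 6 fast partners, with bars of 1 SE and filled points at an adjusted p under 0.05. The slow troponins, Myl6b and Tpm3 start above 0 at day 3 and come nearer to it by day 21, and the 6 fast partners start below it, Tnnc2 at -0.10.

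Between the injured groups, 4 of the 7 were lower at day 21 than at day 3, where 16.2% of all tested genes were called lower and 9.23% higher. Tnnc1 fell by 2.56 (SE 0.68, adjusted p = 0.00779, limma) and Tnni1 by 2.15 (SE 0.55, adjusted p = 0.00594). Myl6b fell by 1.57 (SE 0.34, adjusted p = 0.00134) and Tpm3 by 1.22 (SE 0.36, adjusted p = 0.0146). All day 21 samples of Myl6b and Tnni1 were below all day 3 samples. For Tnnt1 the groups did not overlap either, as for 12.2% of all tested genes in that direction, but the difference of -1.32 (SE 0.53) had an adjusted p of 0.0661. Leaving out day 7 replicate 3 (0.0179) or 6 (0.0386) brought that p under the threshold, as did a common sum per sample (-1.93, 0.00823), own totals of reads (-1.77, 0.0131), sample quality weights (0.00432) and a fit of only the 2 groups (0.00546), and leaving out day 3 replicate 4 took Tpm3 over it (0.0530). None of the 7 was called between neighbouring time points, for which few genes were called at all: 0.0478% lower and 0% higher at day 7 against day 3, 0.219% lower and 0.116% higher at day 14 against day 7, and 0 genes in either direction at day 21 against day 14. The first of these shares rested on 2 libraries, since day 7 against day 3 had 7 genes lower and 0 higher, but 1475 and 317 without day 7 replicate 5 and 648 and 82 without day 3 replicate 5. In limma, 4 of these differences had an unadjusted p under 0.05, all of day 7 against day 3 and all lower, as were 11.4% of all tested genes. They were -1.54 for Tnnc1, -1.51 for Tnni1, -1.04 for Myl6b and -0.72 for Tpm3, with limma adjusted p of 0.245, 0.145, 0.103 and 0.309. That of Myl6b was called without day 7 replicate 4 (-1.36, adjusted p = 0.0342) and that of Tpm3 without day 7 replicate 5 (-0.98, adjusted p = 0.0446).

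Each slow gene was set against the fast gene of the same role: Mylpf and Myl1 for the fast regulatory and essential light chains, Tnnt3, Tnni2 and Tnnc2 for the fast troponins and Tpm1 for the fast-fibre tropomyosin. In control muscle the group means ± SD of FPKM (n = 5) were 12913 ± 646 for Mylpf, 8782 ± 755 for Myl1, 15686 ± 1672 for Tnnt3, 10433 ± 1391 for Tnni2 and 3654 ± 289 for Tpm1. At day 3, 5 of the 6 fast partners were called lower, with differences of -1.07 (SE 0.39, adjusted p = 0.0297) for Mylpf to -1.66 (SE 0.34, adjusted p = 4.14e-04) for Tpm1. At day 7 Tnnt3 (-0.99, adjusted p = 0.0431) and Tpm1 (-1.17, adjusted p = 0.00997) were called lower, and at day 14 and day 21 none was. The 2 at day 7 became 0 with a common sum per sample or quantile normalization, 1 with own totals of reads, and 5 with day 7 replicates 3 and 6 left out. How many fell at day 3 also depended on the scaling between samples: 4 with a common sum per sample or each sample's own total of reads, and 1, Tpm1 (-0.66), with quantile normalization, which put Mylpf at 0.31. The 5 slow genes called higher at day 3 were called under each of these scalings. The scalings also moved the day 3 median of all tested genes, by 0.49 with a common sum, 0.39 with own totals and -0.13 with quantile normalization. Over all alternatives, genes called higher at day 3 ran from 2774 to 6868 (3417 as reported). Tnnc2 was listed at no more than 0.944 FPKM and at 0 in 6 samples, and 74.0% of its exon bases are shared with Ube2c, so troponin C was left out of the ratios.

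The ratio of slow to fast FPKM within a sample does not change with a scaling that multiplies all genes of a sample by 1 factor, which quantile normalization does not. In control muscle Tnni1 made up a median of 0.0126% of the FPKM of Tnni1 and Tnni2 together, and at day 3 a median of 0.869%. The log2 ratio was 6.46 higher at day 3 (SE 0.51, 88.3-fold, exact permutation test, two-sided, p = 0.00794). It was higher than control by 4.15 at day 7 (exact p = 0.0238), 3.86 at day 14 (exact p = 0.00433) and 2.70 at day 21 (SE 0.50, 6.48-fold, exact p = 0.00794). For troponin T the share of Tnnt1 rose from a median of 0.0452% to 0.901% at day 3. Its log2 ratio to Tnnt3 was higher by 4.97 at day 3 (SE 0.54, 31.3-fold, exact p = 0.00794), 3.50 at day 7 (exact p = 0.0108), 3.55 at day 14 (exact p = 0.00216) and 2.29 at day 21 (SE 0.50, 4.89-fold, exact p = 0.00794). For both troponins the day 3, day 14 and day 21 samples did not overlap control, and 5 of 6 day 7 samples were above it. The smallest p the tests allow is 0.00794 with 5 samples a group and 0.00216 with 5 and 6.

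Tpm3 rose from a median of 0.179% of Tpm3 and Tpm1 together to 1.66% at day 3. Its log2 ratio to Tpm1 was higher by 3.31 at day 3 (SE 0.60, 9.92-fold, exact p = 0.00794), 2.03 at day 7 (exact p = 0.0325), 0.97 at day 14 (exact p = 0.0173) and 0.70 at day 21 (SE 0.25, 1.62-fold, exact p = 0.0397). The groups overlapped from day 7 on, and 4 of 5 day 21 samples were above all control samples. At day 14 and day 21 Tpm3 itself differed from control by 0.19 and 0.31, and Tpm1 by -0.76 and -0.35, none of them called. Against Tpm2, another muscle tropomyosin gene, the differences of 0.46 at day 14 (exact p = 0.169) and 0.36 at day 21 (exact p = 0.206) did not pass. The light chain ratios overlapped control at every time point. The log2 ratio of Myl2 to Mylpf differed by -0.075 (exact p = 0.921), 0.66 (p = 0.630, exact), -0.38 (exact p = 0.693) and -1.34 (exact p = 0.214) at the 4 time points. That of Myl3 to Myl1 differed by -0.17 (exact p = 0.865), -1.57 (exact p = 0.186), -0.78 (exact p = 0.338) and -0.86 (exact p = 0.333). Without day 21 replicate 4 the Myl2 ratio was lower at day 21 (-2.20, exact p = 0.00794), and without control replicate 2 the Myl3 ratio was lower at day 7 (-2.25, exact p = 0.0429), day 14 (-1.46, exact p = 0.0143) and day 21 (-1.54, exact p = 0.0397). These 20 tests cover 5 pairs and were not adjusted over the pairs.

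**Figure D3:**
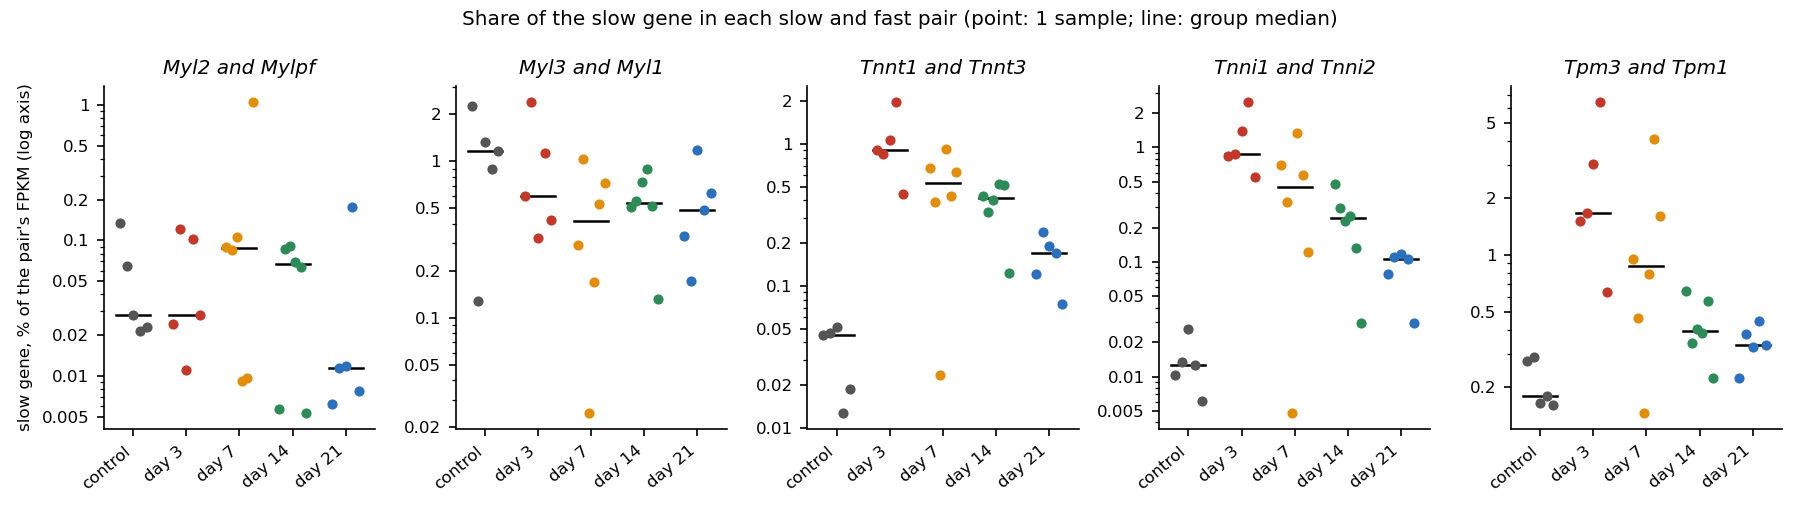
FPKM of the slow gene as a percentage of the slow and fast gene together (log axis) in each sample, for 5 pairs, with a line at the group median. The shares of Tnnt1 and Tnni1 lie above all control points at day 3, day 14 and day 21, with medians of 0.901% and 0.869% at day 3, whereas those of Myl2 and Myl3 overlap control.

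The 7 genes did not vary as a unit among the samples. Over the 27 samples, Pearson's r of log2(FPKM + 1) was 0.91 between Tnnt1 and Tnni1, 0.85 between Tnnc1 and Tpm3, and 0.85 between Myl6b and Tnni1. Between Myl2 or Myl3 and the other 5 genes it lay between -0.17 and 0.26, and between those 2 light chains it was 0.31. These correlations are descriptions over samples that share the groups and the authors' scaling. Among all tested genes, those most like Tnni1 were Myl4 (r = 0.93), Tnnt1 and Tnnt2 (r = 0.91). Myl4 is the embryonic essential light chain and Tnnt2 the embryonic and cardiac troponin T. Those most like Myl6b were Myl4 (0.87), Csdc2 (0.86) and Tnnt2 (0.85), and those most like Tnnt1 were Tnni1, Atp2a2 (0.86) and Klf5 (0.84). For Tnnc1 they were Tpm3, Mt3 (0.82) and Tnnt1 (0.80), and for Tpm3 they were Pea15a (0.88), Gas2l3 (0.86) and Phgdh (0.86). Those most like Myl3 were Apol6 (0.81), Adamtsl5 (0.79) and Camta1 (0.76). Those most like Myl2 were Myh7, the slow myosin heavy chain (r = 0.81), S100b (0.77) and Cmtm5 (0.77), and r with Myh7 was 0.67 without day 7 replicate 6 and day 21 replicate 4, the samples farthest from the median of Myl2.

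**Figure D4:**
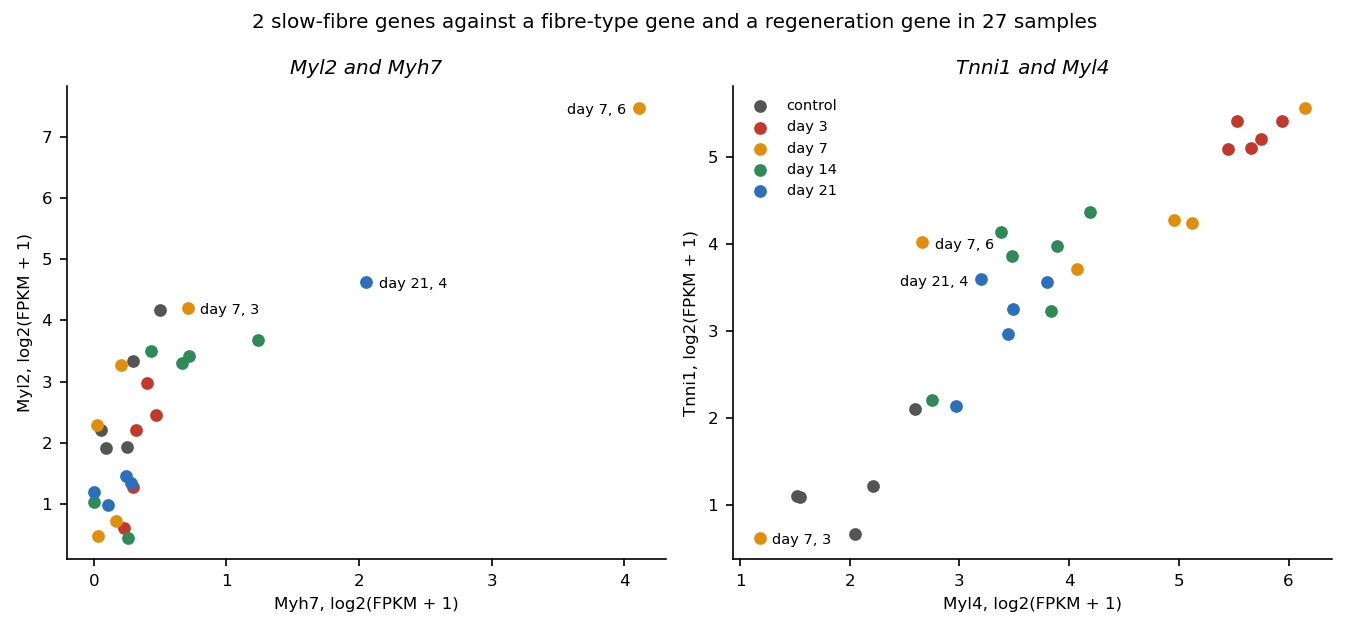
Log2(FPKM + 1) of Myl2 against Myh7 (left) and of Tnni1 against Myl4 (right), 1 point for each of the 27 samples, coloured by group, with 3 samples named by group and replicate. Day 7 replicate 6 and day 21 replicate 4 are the highest in both Myl2 and Myh7, and day 7 replicate 3 lies below all control samples in Tnni1 and Myl4.

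These 3 samples differed from their groups in several of the 7 genes. Day 7 replicate 6 was the highest of its group in Myl2 (177), Myl3 (78.7), Tnnt1 (102), Tnnc1 (153) and Tpm3 (39.3). Its Myh7 was 16.3 FPKM, against 0.0173 to 0.634 in the other day 7 samples, while its embryonic myosin Myh3 was 0.967 and its myogenin, Myog, was 1.503. Day 21 replicate 4 was the highest of its group in Myl2 (23.6), Tnnc1 (35.9) and Tpm3 (15.6), with Myh7 at 3.16 against 0 to 0.215 in the others. In day 7 replicate 3, Myh3 was 0.436 and Myog was 2.32, both within the control ranges of 0.228 to 0.669 and 0.761 to 2.51, while Tnni1 was 0.538. Day 3 replicate 5 and day 7 replicate 5 also stood apart, in the summed FPKM of the listed macrophage genes. The sum was 307 in day 3 replicate 5, against 989 to 2128 in the other day 3 samples. In day 7 replicate 5 it was 1990, against 42.8 to 406 in the other day 7 samples. Each of these 2 sums lay within the range of the other time point's remaining samples. The labels were kept as given. The cause was not tested, nor whether the 2 samples were exchanged. With day 7 replicates 3 and 6 both left out, an alternative chosen after the data were seen, 5 of the 7 were called higher at day 7. With day 7 replicate 6 and day 21 replicate 4 left out, likewise chosen later, the day 7 counts stayed at 2 higher and 1 lower. The part that slow fibres or the site of sampling had in these values was not tested.

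Of 9 other listed genes of the slow programme, 2 were called higher and 2 lower at day 3, which became 3 higher and 0 lower with a common sum per sample or own totals and 2 higher and 1 lower with quantile normalization. Of the 9, 1 was called higher at day 7, day 14 and day 21. That gene was Atp2a2, which encodes a calcium pump of slow and cardiac muscle. The part of cells other than muscle fibres in its value was not tested. Its FPKM was 4.46 ± 0.878 (SD, n = 5) in control and 17.5 ± 2.63 (SD, n = 5) at day 3. Its difference was 1.76 (SE 0.27, adjusted p = 1.95e-05, limma) at day 3, 1.87 (SE 0.26, adjusted p = 2.51e-05) at day 7, 1.70 (SE 0.26, adjusted p = 2.07e-04) at day 14 and 1.24 (SE 0.27, adjusted p = 0.0127) at day 21, and with a common sum per sample or own totals it was not called at day 21. Casq2, the slow and cardiac calsequestrin, was higher at day 3 by 1.34 (SE 0.45, adjusted p = 0.0186). Mybpc1, a slow myosin-binding protein, fell by 0.85 (SE 0.32, adjusted p = 0.0317), and Pln, phospholamban, fell by 0.58 (SE 0.20, adjusted p = 0.0210) at day 3. With a common sum per sample or own totals neither was called, and with quantile normalization Pln was. Myh7 itself, at 0.187 ± 0.148 FPKM (SD, n = 5) in control and 0.270 ± 0.0819 (SD, n = 5) at day 3, was not called at any time point (adjusted p = 0.345 to 0.890). Myh7 rested on 4 to 47 reads in control and 39 to 70 at day 3, and at levels so far under the pseudocount of 1 a change could hardly have passed this test.

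The fast programme was mostly lower at day 3. Of 9 listed genes, 7 were called lower and 0 higher, among them Pvalb (parvalbumin, a calcium buffer) by -2.31 (SE 0.53, adjusted p = 0.00101), Myh4 (the fastest myosin heavy chain) by -1.94 (SE 0.43, adjusted p = 7.98e-04), Myoz1 by -1.63 (SE 0.38, adjusted p = 0.00125) and Atp2a1 (the fast calcium pump) by -1.46 (SE 0.30, adjusted p = 3.73e-04). At day 7, day 14 and day 21 the lower calls were 2, 1 and 0. The 7 at day 3 became 3 with a common sum, 6 with own totals and 4 with quantile normalization. The 2 at day 7 became 0 under each of these scalings, 7 without day 7 replicates 3 and 6, and 5 without day 7 replicate 6 and day 21 replicate 4. The 1 at day 14 became 0 under the 3 scalings and 3 without day 7 replicates 3 and 6.

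Genes of regenerating fibres rose with the slow troponins. Of 8 listed, 7 were called higher at day 3, day 7 and day 14 and 3 at day 21. The 3 became 0 with a common sum per sample, 1 with own totals and 6 without day 7 replicates 3 and 6. Mymk, which drives myoblast fusion, was higher at day 3 by 5.77 (SE 0.65, adjusted p = 5.45e-07), Myog by 5.63 (SE 0.78, adjusted p = 6.34e-06), Myh3 by 5.16 (SE 0.68, adjusted p = 3.23e-06) and Tnnt2 by 3.79 (SE 0.44, adjusted p = 6.41e-07). Summed over the list, FPKM was 134 to 448 in control and 636 to 943 at day 3.

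Markers of cells other than muscle fibres also moved at day 3. All 6 listed macrophage genes were called higher, and their summed FPKM was 15.97 to 24.3 in control and 307 to 2128 at day 3. Lyz2, a lysozyme of macrophages, was higher by 5.77 (SE 0.61, adjusted p = 2.66e-07), Cd68 by 5.53 (SE 0.65, adjusted p = 8.08e-07), Csf1r by 3.64 (SE 0.45, adjusted p = 1.87e-06) and Adgre1 by 3.36 (SE 0.47, adjusted p = 6.84e-06). Of 6 fibroblast genes 5 were called higher, with a sum of 46.1 to 118 in control and 426 to 863 at day 3, led by Postn (3.95, SE 0.48, adjusted p = 1.27e-06) and Col1a1 (3.66, SE 0.39, adjusted p = 2.72e-07). Smooth muscle genes, with Acta2 higher by 1.12 (SE 0.25, adjusted p = 8.97e-04) and Myh11 lower by 0.81 (SE 0.29, adjusted p = 0.0277), had 1 call in each direction among 6, and their sums overlapped (146 to 292 in control and 225 to 290 at day 3). Those calls became 3 higher and 0 lower with a common sum, 2 and 0 with own totals and 1 and 2 with quantile normalization. Tagln, one of the smooth muscle genes, was listed at no more than 1.15 FPKM, and 67.9% of its exon bases are shared with Gm48529 and Pcsk7. Of 5 endothelial genes 2 were called lower, Kdr and Tek, with sums of 57.9 to 68.9 and 39.1 to 85.6, but with a common sum per sample 2 were called higher and 1 lower. The part of these cells in the values of the 7 genes was not tested.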

How the data were processed

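Polyadenylated RNA of 27 muscles was sequenced from non-directional libraries. Per the labels, the authors used HISAT2 2.0.5 and featureCounts 1.5.0-p3. They deposited 1 table of FPKM per gene with gene lengths. How the FPKM were scaled between samples is not given in the sources used here. FPKM times length gave whole reads for every gene above 0 (tolerance 0.01 read). Positions are from the GENCODE M21 annotation (GRCm38). It held 54409 of the genes, 98.3% of them at the table's coordinates.

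Groups follow the treatment in the labels. Genes that reached 0.5 FPKM in 5 or more samples were analysed as log2(FPKM + 1) with limma 3.58.1 in R 4.3.3, with 1 mean per group and a trend of the variance, after tests on simulated data. Ratios were tested with exact permutation tests in Python 3.11.15. Precision depends on a gene's reads, which are given where few. The 7 genes and all lists were chosen with earlier results of these data known. Named are the 7 genes, their fast partners, the 3 genes most correlated with each, and up to 4 called genes with the largest change from each list. Myh7 and Tpm2 were named beyond this rule, after their values were seen. The alternatives tried were other pseudocounts, filters, scalings, weights, blocks and samples left out. Motifs were counted in RefSeq promoter windows, in which all 7 genes were found.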

Additional observations from a re-analysis of the deposited data

Results flagged for a closer look

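Within groups of 4 to 10 samples, a sample was singled out when its gap to the nearest other sample, over the group's range, passed Dixon's 95% critical value. Of 35 groups checked (7 genes in 5 groups), 7 held such a sample, where chance gives about 1 in 20. They were Myl2 (177 FPKM) and Tnnc1 (153) in day 7 replicate 6, Myl2 (23.6), Tnnc1 (35.9) and Tpm3 (15.6) in day 21 replicate 4, Myl6b (36.4) in day 7 replicate 4 and Tnni1 (3.29) in control replicate 3. The 5 values of the first 2 libraries came with the 2 highest values of Myh7 in the series, 16.3 and 3.16 FPKM, and whether slow fibres account for them was not tested. Both libraries bear the letter F in the labels, as does day 14 replicate 6, where Myl2 was 1.04 FPKM.

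The difference from control itself differed between day 21 and day 3 in limma's direct comparison of the 2 groups for 4 genes. Day 21 was lower by 2.56 on the log2 scale for Tnnc1 (a difference of -2.56), and the differences were -2.15 for Tnni1, -1.57 for Myl6b and -1.22 for Tpm3.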

How the results depend on the processing

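The counts of 5 of the 7 genes higher at day 3 and 2 at day 14 were the same under all 43 alternatives. Under these, all tested genes called higher ran from 2774 to 6868 at day 3 and from 835 to 2275 at day 14. At day 7, the 2 higher became 5 with a common sum per sample, own totals of reads or day 7 replicates 3 and 6 left out, and 4 with sample quality weights, settings under which 43.1%, 36.6%, 21% and 19.3% of all tested genes were called higher, against 15% as reported, and the 1 lower (Myl3) became 0 with no filter, a common sum, own totals, only the 2 groups compared or replicate 5 of day 3 and day 7 left out. With replicate 5 of day 3 and day 7 left out, 3 of the 7 were higher at day 7. With an FPKM minimum of 1, Myl6b was called too at day 7 (limma adjusted p = 0.0496). Over all alternatives, all tested genes higher at day 7 ran from 1434 to 6304. The 0 lower at day 3 became 1 with sample quality weights. The 0 higher at day 21 became 2 with pseudocounts of 0.1 or 0.5, sample quality weights, only the 2 groups compared or day 7 replicates 3 and 6 left out, and 1 with an FPKM minimum of 1. All tested genes higher at day 21 (reported 255) ran from 42 to 1196 under the alternatives that did not leave out a single sample. With single samples left out, the counts ran from 0 to 1 (lower, day 3), 2 to 5 (higher, day 7), 0 to 1 (lower, day 7), 0 to 2 (higher, day 21) and 0 to 1 (lower, day 7 against day 3). The 4 lower for day 21 against day 3 became 5 with a common sum, own totals, quality weights, only the 2 groups compared or either pair of libraries chosen later left out, and ran from 3 to 5 with single samples left out. All tested genes lower in that comparison (reported 2377) ran from 1729 to 2566 with single samples left out and from 2006 to 4841 otherwise. The 0 lower for day 7 against day 3 became 2 with quality weights and 1 with replicate 5 of both left out. The cause was not tested.

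Single libraries decided further calls. At day 7, Myl6b was called without day 7 replicate 5 (adjusted p = 0.0361), Tpm3 without day 7 replicate 2 (adjusted p = 0.0487) and Tnnc1 without day 3 replicate 5, day 14 replicate 6 or day 21 replicate 4 (adjusted p = 0.0472, 0.0498 and 0.0487). At day 21, Tnnt1 was called without day 7 replicates 5 or 6 or day 21 replicate 5, and Tnni1 without day 7 replicate 4 or day 14 replicate 6; over all alternatives their adjusted p ran from 5.51e-04 to 0.156 and from 4.72e-04 to 0.222, and that of Myl3 at day 7 from 0.00538 to 0.0828. The Tpm3 to Tpm1 ratio missed the threshold at day 7 without control replicate 3, 4 or 5 or day 7 replicate 1, 4, 5 or 6 (exact p up to 0.0667), and at day 21 without control replicate 3, 4 or 5 or day 21 replicate 2, 3, 4 or 5 (exact p up to 0.0794), where fewer samples also limit the test.

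Scaling to a common sum shifted the median of all tested genes by 0.49, 0.45, 0.27 and 0.10 at the 4 time points, own totals by 0.39, 0.33, 0.23 and 0.10, and quantile normalization by -0.13, -0.079, -0.049 and -0.031. All-gene counts higher and lower ran from 2774 to 6868 and 322 to 3926 at day 3 (reported 3417 and 2899), from 1434 to 6304 and 209 to 2833 at day 7 (reported 2189 and 2107), and from 42 to 1196 and 7 to 1275 at day 21 (reported 255 and 247). At day 14 they ran from 835 to 2275 and 107 to 2293 (reported 1320 and 1649). For day 21 against day 3 they ran from 169 to 2884 and 1729 to 4841 (reported 1351 and 2377).

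Several differences changed sign, and not all of them had been near 0. As reported, Myl2 was 1.17 for day 7 against day 3 and -0.51 for day 14 against day 7, and the Myl2 to Mylpf ratio was 0.66 at day 7. Myl2 at day 7 became -0.48 with voom, -0.13 with quality weights, -1.02 without day 7 replicates 3 and 6 and -0.52 without day 7 replicate 6 and day 21 replicate 4. At day 14 Myl2 became 0.20 with a common sum, 0.16 with own totals and 0.10 with quality weights. For day 7 against day 3, Myl2 became -0.21 without day 7 replicates 3 and 6. For day 14 against day 7, Tnni1 became 0.028 with a pseudocount of 0.1 and 0.074 with voom, Tnnt1 -0.040 with a common sum, and Myl2 0.033 with voom, 0.23 with quality weights, 0.87 without day 7 replicates 3 and 6 and 0.37 without day 7 replicate 6 and day 21 replicate 4. For day 21 against day 14, Myl3 became -0.25 with a common sum, -0.099 with quantile normalization, -0.17 with own totals and -0.33 with quality weights, and Tpm3 -0.14, -0.0713 with own totals and -0.045 without day 7 replicate 6 and day 21 replicate 4. For day 21 against day 3, Myl2 became -0.0215 and -0.0113 with pseudocounts of 0.1 and 0.5, -0.39 with a common sum, -0.30 with own totals and -0.66 without those 2 libraries. The Myl2 to Mylpf ratio became 0.26 at day 3 with a pseudocount of 1 and 0.042 without replicate 5 of day 3 and day 7 (Myl3 to Myl1 0.034), and -0.52 and -0.15 at day 7 under the 2 other omissions. None of these values was called.

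With single samples left out, the differences that changed sign ran from -0.52 to 0.88 (Myl2, day 7), -0.37 to 0.27 (Myl2, day 14), -1.03 to 0.37, -0.30 to 0.57 and -0.74 to 0.25 (Myl2, Tnnt1 and Tnni1, day 14 against day 7), -0.27 to 0.36, -0.49 to 0.14 and -0.045 to 0.19 (Myl3, Tnnc1 and Tpm3, day 21 against day 14), -0.66 to 0.28 (Myl2, day 21 against day 3), -0.48 to 0.38, -0.15 to 1.22 and -0.68 to 0.14 (Myl2 to Mylpf at day 3, 7 and 14) and -0.85 to 0.19 (Myl3 to Myl1, day 3).

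The replicate numbers were not taken to pair the samples, since the labels do not say that they do and not every same-numbered pair correlated over 0.1 (median r of -0.0031 over 51 pairs, 15 of them over 0.1, against 0.0029 over 240 other pairs), although 11 of 27 libraries (40.7%) were closest to one of the same number, where 17.5% of pairs share a number. With the replicate block by number or by letter, 1 gene was higher at day 21 (Tnni1), Myl6b was called too at day 7 (adjusted p = 0.0413 and 0.0487), Tnnc1 for day 21 against day 14 became 0.042 by number, and Myl2 became -0.018 at day 7 and -0.50 for day 21 against day 3 by letter. With the numbers as pairs, the Myl2 to Mylpf ratio became -0.15 at day 7 and 0.14 at day 14.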

Other observations

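Transcription factors and cofactors known to set fibre type were listed as well, and 12 of the 13 were tested (Prox1 was too low). At day 3, 8 were called lower and 1 higher than control, at day 7 the counts were 5 and 1, at day 14 they were 4 and 1, and at day 21 none was called. Vgll2, a cofactor of TEAD factors in skeletal muscle, was lower at day 7 by -1.30 (SE 0.25, adjusted p = 6.93e-04, limma). Ppargc1a, a coactivator of mitochondrial genes, was lower at day 3 by -1.22 (SE 0.20, adjusted p = 4.54e-05). Sox6, which represses slow-fibre genes in fast fibres, was lower at day 3 by -0.93 (SE 0.22, adjusted p = 0.00114). Tead4, a TEAD factor of regenerating muscle, was higher at day 3 by 1.09 (SE 0.25, adjusted p = 0.00126). The lower calls at day 3 depended on the scaling between samples. They were 1 with a common sum per sample, 2 with each sample's own total of reads and 9 with quantile normalization. The 5 and 4 lower calls at day 7 and day 14 became 0 and 0, 2 and 0, and 4 and 3 under the same settings. Sox6 stood at -0.27, -0.39 and -1.01 under these 3 scalings.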
